A study of Mus musculus with 30 samples.

Results

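MGT denotes the cardiac transcription factors Mef2c, Gata4 and Tbx5, which are delivered together to turn fibroblasts into induced cardiomyocyte-like cells. Here neonatal mouse cardiac fibroblasts given MGT were compared with the same kind of cells given LacZ, a bacterial enzyme gene used as the control cargo, across all measured genes. The libraries were chosen by their labels, not by any measured value, and are 4 of the 30 samples of the series and 4 of the 12 in their count table. MGT cells (n = 2 libraries) and LacZ cells (n = 2 libraries) were primary cardiac fibroblasts from wild-type (WT) mouse hearts taken at postnatal days 1 to 3 (P1-P3), both collected at day 3. They share genotype, tissue, age and time and differ in the treatment label. The labels name neither the vector, nor the share of cells that took it up, nor whether the 2 libraries of a group came from separate animals or cultures. The spread behind the p-values may therefore be technical. It was estimated from all 12 libraries of the table, not from the 4 neonatal ones alone. The other 8 libraries of the table, MGT and LacZ cells of 3-month and 18-month mice (n = 2 each), entered the same fit and serve at the end as a comparison.

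Direct cardiac reprogramming skips a stem-cell stage. Gata4 and Mef2c bind enhancers of muscle genes, Tbx5 drives chamber genes, and together they switch on sarcomere, ion-channel and calcium-handling genes while the fibroblast programme recedes over days to weeks. Neonatal fibroblasts are the usual starting cell, and cultures of them also hold some epicardial, endothelial and other heart cells.

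Levels are CPM, read counts scaled to a common library size with TMM factors, and log2FC is the log2 fold change of MGT over LacZ with its standard error. A gene was called, and is said to have risen or fallen, when its adjusted p from edgeR's quasi-likelihood test (Benjamini-Hochberg over all 16368 genes tested) was under 0.05. The MGT libraries held 17755147 and 16608069 counts, against 17637612 and 18796708 counts in the LacZ libraries, so 3 counts in a library correspond to 0.16 to 0.181 CPM. Fibroblast markers were abundant in both groups, with Col1a1, the main fibrillar collagen, at 5959 and 5828 CPM in the MGT libraries, against 6342 and 6310 CPM in the LacZ libraries. The sum of the 9 cardiomyocyte markers was 925.3 and 1341 CPM in MGT libraries, against 326.2 and 277.7 CPM in LacZ libraries, and Tnnt2 made up most of it in all 4.

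The delivered factors separated the groups and fit their labels. Tbx5 (chr5:119832668-119885219, plus strand of GRCm38) had 218 and 270 CPM in the MGT libraries, against 2.45 and 1.97 CPM in the LacZ libraries (log2FC 6.78 ± 0.16, edgeR adjusted p = 2.33e-18). Mef2c (chr13:83504034-83667080, plus strand) had 178 and 219 CPM in the MGT libraries, against 18.3 and 16.5 CPM in the LacZ libraries. Mef2c had a log2FC of 3.51 ± 0.13 (edgeR adjusted p = 1.75e-15). Gata4 (chr14:63198922-63271692, minus strand) was already abundant with LacZ, and had 268 and 305 CPM in the MGT libraries, against 165 and 154 CPM in the LacZ libraries (log2FC 0.84 ± 0.088, edgeR adjusted p = 9.83e-08). All 3 were higher in both MGT libraries than in either LacZ library, and all 3 were higher in MGT replicate 2 than in MGT replicate 1. Counts per gene cannot tell reads of the delivered copy from reads of the cell's own gene. The deposited FPKM divide by annotated exonic length, which is 15715 bases for Mef2c, 4675 for Tbx5 and 3904 for Gata4. On that scale Gata4 had the highest value in both groups (73.2 FPKM in MGT and 40.7 FPKM in LacZ cells). Tbx5 stood at 52 FPKM in MGT and 0.47 FPKM in LacZ cells, and Mef2c at 12.6 FPKM in MGT and 1.1 FPKM in LacZ cells. Lengths of the delivered copies are not given in the labels, so these values cannot rank the factors in MGT cells.

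**Figure D1:**
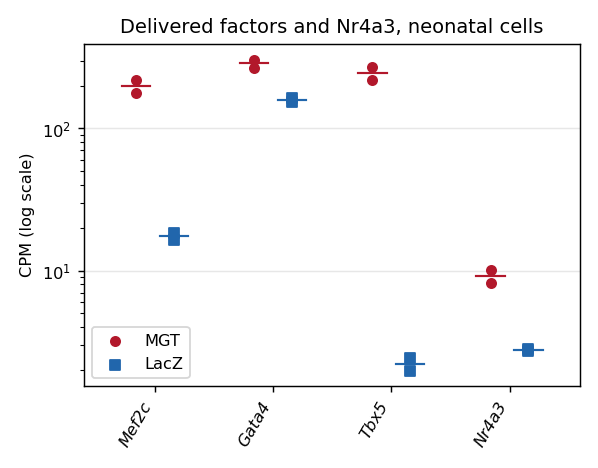
CPM on a log axis of the delivered factors and of Nr4a3, with MGT libraries as circles to the left of LacZ libraries as squares, and the mean of each group as a line (n = 2). Tbx5 and Mef2c stand far apart between the groups, while Gata4 has 165 and 154 CPM already in the LacZ libraries.

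In all, 698 genes rose (4.26% of those tested) and 531 fell (3.24%), together 7.51%. Counts in each gene list below are to be read beside these shares. Rises in the lists of chemokine, chromatin and imprinted genes lay near the share of all genes, at 4.55%, 5.56% and 5.56%. The median log2FC over all tested genes was -0.0088. Of the called genes, 313 rose at least 2-fold (1.91%) and 146 fell at least 2-fold (0.892%), and 145 rose but 43 fell at least 4-fold, so the larger changes were mostly rises. In each of the 1229 called genes the MGT libraries did not overlap the LacZ libraries. Calls were made on these same libraries, so this adds no support, here or for the called genes below. Uncalled genes such as Atp2a2 did not overlap either. The number called was 721 without LacZ replicate 1, 717 without LacZ replicate 2 and 688 without MGT replicate 2, and 1977 when only the 4 neonatal libraries were fitted (1099 higher, 878 lower).

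**Figure D2:**
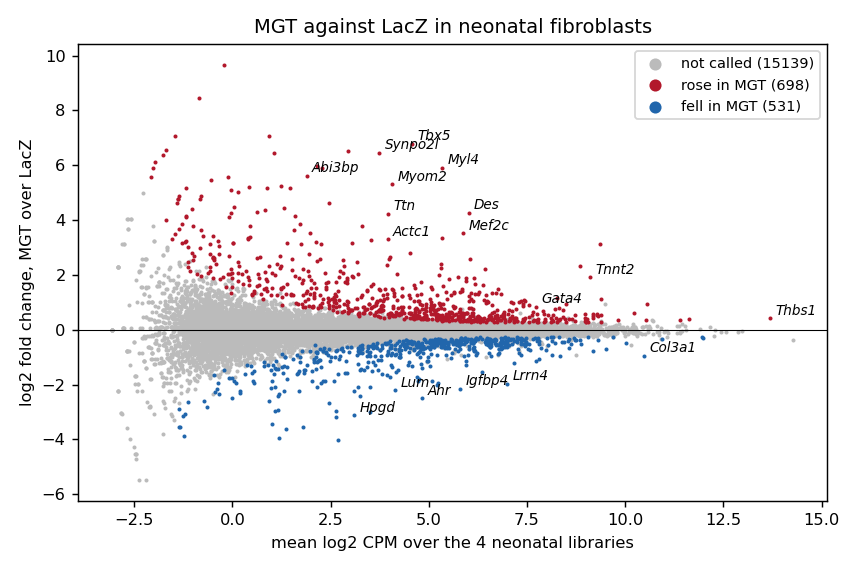
Each tested gene by its mean log2 CPM over the 4 neonatal libraries and its log2 fold change of MGT over LacZ, with the 698 genes that rose in red, the 531 that fell in blue and the rest in grey. The largest named rises include the delivered factor Tbx5, the muscle genes Synpo2l and Myl4 and the matrix gene Abi3bp. The largest named falls include Hpgd, Ahr and Lum.

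Genes of the contractile apparatus rose together. Of the thick filament and titin list 4 of 8 tested members rose and none fell (median log2FC 1.66), and of the thin filament list 5 of 12 rose and none fell (median 0.76), where 4.26% of all genes rose. Myl4, the atrial and embryonic essential light chain of myosin, had 250.2 and 383 CPM in the MGT libraries, against 5.07 and 5.39 CPM in the LacZ libraries. This gave Myl4 a log2FC of 5.92 ± 0.23 (edgeR adjusted p = 3.47e-08). Ttn, the giant spring protein titin, had 48.7 and 87.6 CPM in the MGT libraries, against 3.48 and 3.73 CPM in the LacZ libraries (log2FC 4.23 ± 0.32, edgeR adjusted p = 3.77e-05). The lower MGT library lay 46.4-fold above the higher LacZ library for Myl4 and 13-fold above it for Ttn.

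Other members started from different levels. Myl7, the atrial regulatory light chain, had 47.2 and 75.2 CPM in the MGT libraries, against 8.26 and 9.29 CPM in the LacZ libraries (log2FC 2.80 ± 0.18, edgeR adjusted p = 5.92e-09), and Mybpc3, which ties myosin to titin, had 7.42 and 12.1 CPM in the MGT libraries, against 1.2 and 1.65 CPM in the LacZ libraries. The log2FC of Mybpc3 was 2.76 ± 0.32 (edgeR adjusted p = 6.81e-07). On the thin filament, cardiac actin (Actc1) had 35.5 and 61.8 CPM in the MGT libraries, against 4.96 and 4.96 CPM in the LacZ libraries (log2FC 3.29 ± 0.25, edgeR adjusted p = 9.88e-07). Tnnt2, the cardiac troponin that anchors the troponin complex to tropomyosin and is a common readout of reprogramming, had 879 and 1276 CPM in the MGT libraries, against 310 and 262 CPM in the LacZ libraries. Tnnt2 had a log2FC of 1.91 ± 0.18 (edgeR adjusted p = 8.72e-05). Tnnt2 was therefore among the abundant transcripts of these cultures with LacZ alone, and the lower MGT library lay 2.84-fold above the higher LacZ library. Tpm1, tropomyosin, was abundant in fibroblasts too and rose 1.91-fold, with 1940 and 2247 CPM in the MGT libraries, against 1104 and 1090 CPM in the LacZ libraries (log2FC 0.93 ± 0.081, edgeR adjusted p = 4.16e-09). Lmod2, which elongates thin filaments, had 5.12 and 9.57 CPM in the MGT libraries, against 0.399 and 0 CPM in the LacZ libraries (log2FC 5.19 ± 0.59, edgeR adjusted p = 1.22e-05), where the LacZ values stand for 7 and 0 counts. In a fit of the 4 neonatal libraries alone, Ttn, Actc1, Tnnt2 and Myl7 missed the threshold (edgeR adjusted p = 0.0773, 0.0758, 0.0977 and 0.0581). The MGT libraries differ by 1.80-fold in Ttn, 1.74-fold in Actc1, 1.45-fold in Tnnt2 and 1.59-fold in Myl7, replicate 2 being the higher.

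The adult heavy chains were not called. Myh6, the fast cardiac myosin, had 7.53 and 8.66 CPM in the MGT libraries, against 8.32 and 7.63 CPM in the LacZ libraries, and the groups overlapped (log2FC 0.021 ± 0.24, edgeR adjusted p = 0.988). Myh7, the slow cardiac myosin, had 12 and 10 counts in MGT libraries, against 7 and 6 counts in LacZ libraries, too few to be tested. Altogether 5 members of the thick filament list and 1 of the thin filament list had too few counts for a test, none above 12 counts in a library.

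The Z-disc, where neighbouring sarcomeres meet, with the M-band and the costamere, rose in 17 of 24 tested members and fell in none (median log2FC 1.73). This was the largest share of rises of the 41 lists after the delivered factors themselves. Members such as Smpx, with 2 counts in each LacZ library, were tested because of their reads in MGT libraries. The share and its rank therefore lean towards rises. Synpo2l, a Z-disc actin-binding protein, had 102 and 141 CPM in the MGT libraries, against 1.54 and 1.23 CPM in the LacZ libraries. This gave Synpo2l a log2FC of 6.45 ± 0.20 (edgeR adjusted p = 1.26e-15). Des, which encodes the muscle intermediate filament desmin, had 249 and 315 CPM in the MGT libraries, against 14.9 and 14.6 CPM in the LacZ libraries (log2FC 4.26 ± 0.11, edgeR adjusted p = 3.08e-19), the smallest p among members of the lists. Myom2, an M-band crosslinker, had 84 and 124 CPM in the MGT libraries, against 2.85 and 2.4 CPM in the LacZ libraries (log2FC 5.30 ± 0.20, edgeR adjusted p = 1.06e-11). The lower MGT library lay 66-fold above the higher LacZ library for Synpo2l, 16.8-fold for Des and 29.5-fold for Myom2.

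Smpx, a small protein of striated muscle, was at trace level with LacZ, with 14.4 and 17 CPM in the MGT libraries, against 0.114 and 0.107 CPM in the LacZ libraries (log2FC 7.06 ± 0.35, edgeR adjusted p = 5.91e-13), where the LacZ values are 2 counts each. Ldb3, a Z-disc protein with PDZ and LIM domains, rose 4.79-fold (log2FC 2.26 ± 0.12, edgeR adjusted p = 4.02e-13). The more abundant members named by level rose by less. Cryab, a small heat-shock chaperone that binds desmin, had 467 and 534 CPM with MGT, against 262 and 265 CPM with LacZ (log2FC 0.92 ± 0.091, edgeR adjusted p = 4.41e-08), and Pdlim5, another PDZ-LIM protein, had 649 and 692 CPM with MGT, against 494 and 512 CPM with LacZ (log2FC 0.42 ± 0.084, edgeR adjusted p = 0.0013). Of the 26 contractile and Z-disc genes that rose, 24 were higher in MGT replicate 2 than in replicate 1. Other genes that rose, such as Myocd and Nr4a3, had the opposite order. Such counts, here and below, describe 1 pair of libraries, and the share over all genes was not computed.

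Beyond the lists, Mustn1, a small nuclear protein of the musculoskeletal system, had 111 and 145 CPM with MGT, against 11.7 and 13.5 CPM with LacZ (log2FC 3.34 ± 0.14, edgeR adjusted p = 5.56e-12), and Fhod3, a formin that assembles cardiac sarcomeres, had 30.1 and 40.3 CPM with MGT, against 3.59 and 3.73 CPM with LacZ (log2FC 3.26 ± 0.17, edgeR adjusted p = 4.83e-13). Ism1, a secreted protein, had 22 and 26 CPM with MGT, against 2.91 and 2.51 CPM with LacZ (log2FC 3.15 ± 0.17, edgeR adjusted p = 9.01e-13). They complete the 12 largest rises among the more abundant genes, of which the others are described with their lists.

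The start regions of 5 of the most strongly raised contractile genes are shown because GATA and MEF2 proteins are among the delivered factors. Each runs from 250 bases before to 50 bases after a RefSeq start (GRCm38.p6), 5′ to 3′ on the gene's strand, and the RefSeq start lies 0 to 63 bases from the gene start in the deposited table. Capitals mark matches on either strand to a GATA word, which is GATA with A or T before it and A or G after it, or to a MEF2-type word, which is CTA, any 4 bases and TAG. The windows are Smpx (chrX:157698723-157699022, plus strand), Synpo2l (chr14:20668305-20668604, minus strand), Des (chr1:75360042-75360341, plus strand), Lmod2 (chr6:24597521-24597820, plus strand) and Myl4 (chr11:104550413-104550712, plus strand).
Smpx: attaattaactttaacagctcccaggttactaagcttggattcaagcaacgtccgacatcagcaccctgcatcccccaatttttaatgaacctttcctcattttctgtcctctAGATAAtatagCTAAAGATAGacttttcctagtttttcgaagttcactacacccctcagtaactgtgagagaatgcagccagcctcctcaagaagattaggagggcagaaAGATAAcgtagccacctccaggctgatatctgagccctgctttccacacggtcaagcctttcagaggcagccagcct
Synpo2l: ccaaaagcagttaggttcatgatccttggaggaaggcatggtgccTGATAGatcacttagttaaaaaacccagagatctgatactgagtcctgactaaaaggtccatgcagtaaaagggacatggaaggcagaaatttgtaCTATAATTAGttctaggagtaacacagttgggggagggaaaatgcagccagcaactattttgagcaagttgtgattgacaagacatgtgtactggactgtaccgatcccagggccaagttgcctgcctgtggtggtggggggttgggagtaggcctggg
Des: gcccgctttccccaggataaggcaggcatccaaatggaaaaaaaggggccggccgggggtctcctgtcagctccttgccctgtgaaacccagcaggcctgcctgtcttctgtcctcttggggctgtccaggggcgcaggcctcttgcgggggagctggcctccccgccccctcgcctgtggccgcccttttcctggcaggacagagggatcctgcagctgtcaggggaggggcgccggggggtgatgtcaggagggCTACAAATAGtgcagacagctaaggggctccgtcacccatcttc
Lmod2: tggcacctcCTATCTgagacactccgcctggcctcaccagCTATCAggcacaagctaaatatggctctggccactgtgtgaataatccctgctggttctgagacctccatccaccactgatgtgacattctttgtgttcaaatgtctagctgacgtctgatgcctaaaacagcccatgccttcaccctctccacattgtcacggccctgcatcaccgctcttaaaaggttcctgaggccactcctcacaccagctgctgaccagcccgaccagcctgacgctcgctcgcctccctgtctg
Myl4: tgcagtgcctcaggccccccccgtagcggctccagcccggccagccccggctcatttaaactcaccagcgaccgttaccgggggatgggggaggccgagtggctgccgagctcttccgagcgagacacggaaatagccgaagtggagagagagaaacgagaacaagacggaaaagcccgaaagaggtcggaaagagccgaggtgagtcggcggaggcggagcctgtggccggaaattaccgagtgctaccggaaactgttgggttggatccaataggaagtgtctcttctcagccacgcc

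The Smpx window holds 3 GATA words and 1 MEF2-type word, and the MEF2-type word overlaps the second of the GATA words. The Synpo2l window holds 1 of each, the GATA word 205 and the MEF2-type word 109 bases before the start. The Des window holds 1 MEF2-type word that begins 6 bases after the start, and the Lmod2 window holds 2 GATA words on the reverse strand, 241 and 210 bases before the start. The Myl4 window holds neither, and none of the 5 holds the T-box word AGGTGT on either strand. Of all 32851 windows in the RefSeq table, 29.8% hold a GATA word, 3.69% the MEF2-type word and 13.7% the T-box word. A match is a description of the letters, and binding was not measured here.

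**Figure D3:**
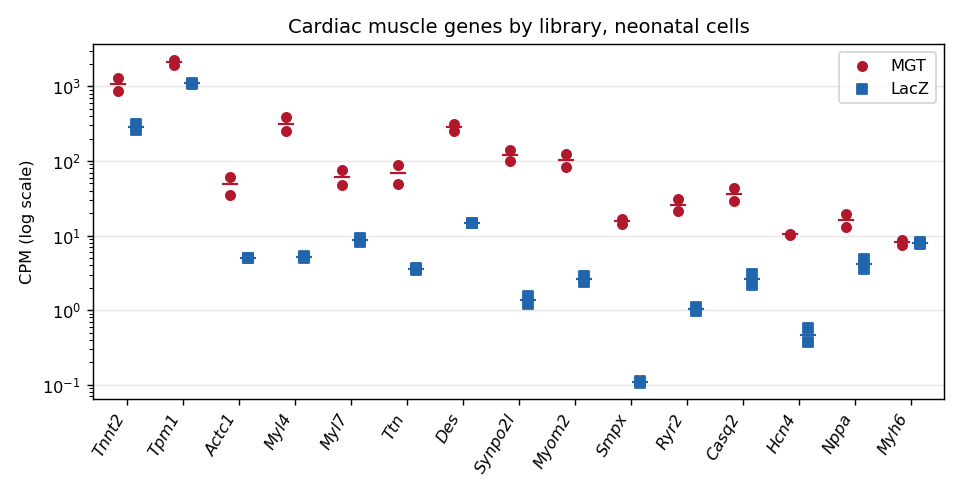
CPM on a log axis of cardiac muscle genes in the MGT libraries (circles, left) and the LacZ libraries (squares, right), with group means as lines (n = 2). All but Myh6 lie higher in both MGT libraries than in either LacZ library, and Tnnt2 has 310 and 262 CPM already in LacZ cells.

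Calcium handling, which couples the membrane signal to contraction, rose in 12 of 19 tested members and fell in none (median log2FC 0.35). Ryr2, the cardiac calcium release channel, had 21.3 and 30.6 CPM in the MGT libraries, against 0.969 and 1.12 CPM in the LacZ libraries. The log2FC of Ryr2 was 4.62 ± 0.24 (edgeR adjusted p = 2.54e-13). Casq2, the calcium buffer of the sarcoplasmic reticulum, had 29.2 and 43.1 CPM in the MGT libraries, against 2.17 and 3.1 CPM in the LacZ libraries (log2FC 3.77 ± 0.23, edgeR adjusted p = 9.95e-11). In both genes the MGT libraries lay far above the LacZ libraries. Smaller rises were those of Camk2a, a calcium-dependent kinase (21.9 and 22.5 CPM with MGT, against 8.32 and 7.52 CPM with LacZ, log2FC 1.49 ± 0.15, edgeR adjusted p = 3.65e-08), and Slc8a1, the sodium-calcium exchanger (87.8 and 98.8 CPM with MGT, against 41.8 and 47.9 CPM with LacZ, log2FC 1.06 ± 0.12, edgeR adjusted p = 4.95e-07). Atp2a2, the pump that refills the store, was abundant in both groups at 494 and 508 CPM in the MGT libraries, against 453 and 456 CPM in the LacZ libraries, and its difference did not pass the test (log2FC 0.14 ± 0.078, edgeR adjusted p = 0.417). The count was 8 without LacZ replicate 1. Sln, an atrial inhibitor of that pump, had 38 and 57 counts with MGT, against 2 and 0 counts with LacZ, a ratio of 50.3 (exact 95% interval from counting 13.5 to 421).

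Among ion channels and gap junction genes 5 of 16 tested members rose and none fell (median log2FC 0.45). Hcn4, the pacemaker channel, had 10.5 and 10.2 CPM in the MGT libraries, against 0.57 and 0.373 CPM in the LacZ libraries. Hcn4 had a log2FC of 4.45 ± 0.36 (edgeR adjusted p = 3.56e-09). Popdc3, a cAMP-binding membrane protein of striated muscle, had 4.72 and 5.27 CPM in the MGT libraries, against 1.2 and 0.8 CPM in the LacZ libraries (log2FC 2.32 ± 0.42, edgeR adjusted p = 0.000365). Both were still low in MGT cells. Gja1, the main connexin of ventricular gap junctions, was level at 116 and 124 CPM in the MGT libraries, against 119.6 and 121 CPM in the LacZ libraries. This gave Gja1 a log2FC of -0.004 ± 0.091 (edgeR adjusted p = 0.993). The count of 5 was 3 without LacZ replicate 1, 2 without LacZ replicate 2 and 3 without MGT replicate 2, and Hcn4 and Popdc3 held in all of these. At the intercalated disc 5 of 10 rose, but 1 without LacZ replicate 1, 3 without LacZ replicate 2 and 1 without MGT replicate 2. Dsp, the desmosomal linker desmoplakin, rose in every such fit, with 15.8 and 18.6 CPM in the MGT libraries, against 6.84 and 8.75 CPM in the LacZ libraries (log2FC 1.14 ± 0.19, edgeR adjusted p = 0.000173).

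Chamber markers were uneven. Of 7 tested atrial genes 4 rose, among them Myl4, Myl7 and Sln given above, and none of 4 tested ventricular genes was called by edgeR or by DESeq2, with none at an unadjusted p under 0.05. Nppa, the atrial natriuretic peptide, had 13 and 19.6 CPM in the MGT libraries, against 3.59 and 4.8 CPM in the LacZ libraries. The log2FC of Nppa was 1.95 ± 0.25 (edgeR adjusted p = 6.22e-06). Nppb, the B-type peptide of stretched ventricle, had 5.85 and 6.66 CPM in the MGT libraries, against 0.285 and 1.6 CPM in the LacZ libraries (log2FC 2.69 ± 0.35, edgeR adjusted p = 6.55e-06). Their lower MGT library lay 2.72-fold and 3.65-fold above their higher LacZ library. Of the natriuretic list 3 of 5 rose and 1 fell. Besides Nppa and Nppb, the receptor Npr2 rose, and the receptor Npr3 fell. Neither receptor kept its call whichever neonatal library was left out. In those fits the log2FC of Npr2 ran from 0.33 to 0.46 and that of Npr3 from -0.87 to -0.39. Gja1, given above, was the only one of the 4 tested ventricular genes at a high level, the other 3 lay below 5 CPM in all 4 libraries, and 4 more members had at most 12 counts in a library.

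Other cardiac transcription factors were mostly not called. Of 20 tested, 4 rose and 1 fell (median log2FC -0.034). Ankrd1, a muscle cofactor that also responds to stretch, was the most abundant of those that rose, with 1398 and 1539 CPM in the MGT libraries, against 954 and 967 CPM in the LacZ libraries. Ankrd1 had a log2FC of 0.61 ± 0.079 (edgeR adjusted p = 3.22e-06). Myocd, the coactivator of serum response factor in heart and smooth muscle, had 7.48 and 5.69 CPM in the MGT libraries, against 2.34 and 2.29 CPM in the LacZ libraries (log2FC 1.51 ± 0.30, edgeR adjusted p = 0.000987). Tbx20, a factor of early heart, was abundant and level, at 989.6 and 1044 CPM in the MGT libraries, against 1015 and 1052 CPM in the LacZ libraries (log2FC -0.024 ± 0.10, edgeR adjusted p = 0.957), and so was Mef2a, the relative of Mef2c, at 326 and 282 CPM in the MGT libraries, against 337 and 352 CPM in the LacZ libraries. This gave Mef2a a log2FC of -0.18 ± 0.09 (edgeR adjusted p = 0.32). Nkx2-5, an early marker of cardiac fate, had 4 and 2 counts in MGT libraries, against 10 and 6 counts in LacZ libraries, too few for a test, and Hand1, Isl1 and Irx4 had at most 7 counts in a library. The rises numbered 2 without LacZ replicate 1 and 2 without MGT replicate 2, and the fall was lost without LacZ replicate 1 or MGT replicate 1.

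Nr4a3, the orphan nuclear receptor that the series studies (chr4:48045153-48086447, plus strand), had 10.1 and 8.18 CPM in the MGT libraries, against 2.73 and 2.83 CPM in the LacZ libraries (log2FC 1.72 ± 0.23, edgeR adjusted p = 2.15e-05), a rise at a low level. Its relative Nr4a1 had 138 and 100 CPM in the MGT libraries, against 46.5 and 50.3 CPM in the LacZ libraries (log2FC 1.30 ± 0.17, edgeR adjusted p = 0.000394), with edgeR adjusted p = 0.0700 when only the 4 neonatal libraries were fitted. Both are immediate early genes in many cells. Of the 18 genes of the immediate early list these 2 rose and none fell (median log2FC 0.20), and 3 rose without MGT replicate 2 and 5 without the 3-month LacZ libraries.

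Metabolic genes were mostly not called. Among genes of fatty acid and creatine use in the heart, 4 of 17 tested members rose and none fell (median log2FC 0.084), and 2 rose without MGT replicate 1. Pdk4, which turns glucose oxidation down, had 23.5 and 21.9 CPM in the MGT libraries, against 14.5 and 10.7 CPM in the LacZ libraries (log2FC 0.85 ± 0.13, edgeR adjusted p = 5.78e-05). Pgam2, the muscle phosphoglycerate mutase, had 7.31 and 8.54 CPM in the MGT libraries, against 3.65 and 3.42 CPM in the LacZ libraries. The log2FC of Pgam2 was 1.16 ± 0.23 (edgeR adjusted p = 0.000968). Of 16 respiratory chain genes none was called by edgeR or by DESeq2, none had an unadjusted p under 0.05, and the median log2FC was 0.028. Atp5f1b, a subunit of the ATP synthase, had 779.5 and 809 CPM in the MGT libraries, against 769 and 764 CPM in the LacZ libraries.

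The raised muscle genes were not only cardiac. Of 25 listed skeletal muscle genes 9 were tested, of which 4 rose and none fell (median log2FC 1.27). The 16 others had too few counts for a test, at most 7 in a library. Of those that rose, Myh8, Myh2 and Mybpc2 had at most 2 counts in a LacZ library and were tested because of their reads in MGT libraries. The share and the median of the tested members therefore lean towards rises. Myh1, a fast skeletal myosin, had 28.6 and 44.5 CPM in the MGT libraries, against 0.969 and 0.267 CPM in the LacZ libraries (log2FC 5.89 ± 0.34, edgeR adjusted p = 5.41e-08). Myh8, the perinatal skeletal myosin, had 28 and 60 counts in MGT libraries, against 0 counts in both LacZ libraries, at least 31-fold higher with MGT against a floor of 3 counts over the group. The skeletal count was 2 without LacZ replicate 1. Of 12 smooth muscle contractile genes 5 rose (median log2FC 0.28), but 3, 1, 3 and 2 without LacZ replicate 1, LacZ replicate 2, MGT replicate 1 and MGT replicate 2. Myl9, the smooth muscle regulatory light chain, held in all, with 331 and 358 CPM in the MGT libraries, against 249 and 226 CPM in the LacZ libraries. Myl9 had a log2FC of 0.54 ± 0.10 (edgeR adjusted p = 0.000539). Acta2, the actin of smooth muscle and myofibroblasts, had 3501 and 3703 CPM in the MGT libraries, against 2794 and 2741 CPM in the LacZ libraries (log2FC 0.38 ± 0.078, edgeR adjusted p = 0.00159), and lost its call in some of these fits.

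Fibroblast identity genes fell more often than they rose. Of 20 tested members 8 fell and 3 rose (median log2FC -0.19), where 3.24% of all genes fell. Lum, the collagen-binding proteoglycan lumican, had 9.11 and 7.15 CPM in the MGT libraries, against 38.4 and 37 CPM in the LacZ libraries (log2FC -2.21 ± 0.14, edgeR adjusted p = 1.34e-11). Dcn, the related decorin, had 469.9 and 415 CPM in the MGT libraries, against 776 and 745 CPM in the LacZ libraries. This gave Dcn a log2FC of -0.78 ± 0.093 (edgeR adjusted p = 9e-07). Pdgfra, the receptor that marks cardiac fibroblasts, had 131 and 112 CPM in the MGT libraries, against 203 and 192 CPM in the LacZ libraries (log2FC -0.70 ± 0.089, edgeR adjusted p = 2.57e-06). All 3 were lower in both MGT libraries, lumican by the most. Thy1, a surface marker of fibroblasts, was one of the 3 that rose, with 430 and 448 CPM in the MGT libraries, against 275 and 263 CPM in the LacZ libraries (log2FC 0.71 ± 0.086, edgeR adjusted p = 1.17e-06). Vim, the mesenchymal intermediate filament, did not pass the test (log2FC 0.15 ± 0.08, edgeR adjusted p = 0.38). The falls numbered 5 without LacZ replicate 2 and 5 without MGT replicate 2, and 5 rose when only the 4 neonatal libraries were fitted.

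Of 20 tested collagens 4 fell and 1 rose (median log2FC -0.15), but 9 fell and 5 rose when only the 4 neonatal libraries were fitted, and 4 rose without the 3-month LacZ libraries. When any 1 of the 4 libraries was left out 2 fell, and the rise was lost without LacZ replicate 1, LacZ replicate 2 or MGT replicate 1. Col3a1, the collagen of distensible tissue, fell clearly, with 1122 and 937 CPM in the MGT libraries, against 2029 and 1956 CPM in the LacZ libraries. The log2FC of Col3a1 was -0.95 ± 0.10 (edgeR adjusted p = 1.72e-07). Col6a1, of the pericellular microfibrils, had 194 and 174 CPM in the MGT libraries, against 299 and 281 CPM in the LacZ libraries (log2FC -0.65 ± 0.13, edgeR adjusted p = 0.00288). Col1a1 did not pass the test (log2FC -0.10 ± 0.095, edgeR adjusted p = 0.707). Among genes of activated fibroblasts 3 of 19 rose and 2 fell (median log2FC -0.041), with 1 fall without LacZ replicate 1, LacZ replicate 2 or MGT replicate 2, and with 5 rises and 4 falls in the fit of the neonatal libraries alone. Cthrc1, a secreted protein of healing scars, had 115 and 121 CPM in the MGT libraries, against 32.3 and 30.9 CPM in the LacZ libraries (log2FC 1.90 ± 0.11, edgeR adjusted p = 5.26e-12), the largest change of that list. Thbs1, a matricellular thrombospondin and one of the most abundant transcripts here, had 14890 and 15600 CPM in the MGT libraries, against 11290 and 11630 CPM in the LacZ libraries (log2FC 0.41 ± 0.082, edgeR adjusted p = 0.00109), and Ccn4, a related secreted protein induced by Wnt signals, had 746 and 867 CPM in the MGT libraries, against 562 and 546 CPM in the LacZ libraries. Ccn4 had a log2FC of 0.54 ± 0.086 (edgeR adjusted p = 6.27e-05). Fn1, fibronectin, had 17530 and 17530 CPM in the MGT libraries, against 22450 and 22900 CPM in the LacZ libraries, and was not called (log2FC -0.37 ± 0.24, edgeR adjusted p = 0.559). When only the 4 neonatal libraries were fitted, Fn1 had edgeR adjusted p = 2.54e-07. Its 3-month LacZ libraries, part of the main fit, had 8273 ± 3331 CPM (SD, n = 2). Postn, periostin, stood at 2115 and 2092 CPM in the MGT libraries, against 2276 and 2273 CPM in the LacZ libraries and did not pass the test (log2FC -0.11 ± 0.09, edgeR adjusted p = 0.641).

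Genes of the TGF-beta, BMP, Wnt and FGF lists changed in both directions. In the TGF-beta list 5 of 21 tested members rose and 4 fell (median log2FC 0.028), and the falls numbered 1, 3, 2 and 1 without LacZ replicate 1, LacZ replicate 2, MGT replicate 1 and MGT replicate 2. The ligand Tgfb2 had 151 and 212 CPM in the MGT libraries, against 74.8 and 71.3 CPM in the LacZ libraries (log2FC 1.31 ± 0.12, edgeR adjusted p = 4.7e-08), with edgeR adjusted p = 0.108 when only the 4 neonatal libraries were fitted. The ligand Tgfb3 had 199.5 and 247 CPM in the MGT libraries, against 111 and 113 CPM in the LacZ libraries (log2FC 0.99 ± 0.10, edgeR adjusted p = 2.66e-08). Its storage protein Ltbp1 had 232 and 235 CPM in the MGT libraries, against 118 and 127 CPM in the LacZ libraries (log2FC 0.93 ± 0.079, edgeR adjusted p = 2.83e-09), and the receptor Tgfbr1 had 117 and 124 CPM in the MGT libraries, against 74.4 and 82.2 CPM in the LacZ libraries. This gave Tgfbr1 a log2FC of 0.62 ± 0.093 (edgeR adjusted p = 2.78e-05). Each of these 4 was higher in both MGT libraries than in either LacZ library. Among the members that fell were the co-receptor Tgfbr3 (log2FC -0.49 ± 0.11, edgeR adjusted p = 0.00566) and the storage protein Ltbp4 (log2FC -0.40 ± 0.10, edgeR adjusted p = 0.0121), both chosen after their values were seen.

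In the BMP list 3 of 17 rose and 5 fell (median log2FC 0.0042). The 3 that rose are secreted antagonists. Fst, which traps activin, had 153 and 142 CPM in the MGT libraries, against 49.1 and 45.9 CPM in the LacZ libraries (log2FC 1.63 ± 0.10, edgeR adjusted p = 5.75e-12), and Grem1, which traps BMPs, had 27 and 28.8 CPM in the MGT libraries, against 9.12 and 11.3 CPM in the LacZ libraries (log2FC 1.45 ± 0.12, edgeR adjusted p = 1.77e-09). The fallen members include the Id genes, direct targets of BMP signals that block bHLH factors. Id1 had 46 and 40.1 CPM in the MGT libraries, against 84.3 and 81.7 CPM in the LacZ libraries (log2FC -0.94 ± 0.10, edgeR adjusted p = 7.7e-08), and Id2 (log2FC -0.74 ± 0.10, edgeR adjusted p = 5.07e-06) and Id3 (log2FC -0.51 ± 0.091, edgeR adjusted p = 0.000278) fell less. In each of these genes the libraries of the groups stood apart. The members were listed for their place in the pathway, and signalling itself was not measured.

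In the Wnt list 5 of 25 rose and 6 fell (median log2FC -0.21), but 3 rose without any 1 of the 4 libraries, and 2, 2, 4 and 2 fell without LacZ replicate 1, LacZ replicate 2, MGT replicate 1 and MGT replicate 2. DESeq2 called 3 falls. Axin2, a feedback target of beta-catenin, had 4.33 and 5.15 CPM in the MGT libraries, against 0.855 and 0.907 CPM in the LacZ libraries. The log2FC of Axin2 was 2.41 ± 0.37 (edgeR adjusted p = 3.76e-05). Rspo3, a secreted enhancer of Wnt signals, had 8.15 and 6.36 CPM in the MGT libraries, against 1.31 and 1.81 CPM in the LacZ libraries (log2FC 2.21 ± 0.25, edgeR adjusted p = 3.56e-07). Sfrp2, a secreted Wnt binder, had 3.32 and 4.84 CPM in the MGT libraries, against 22.3 and 21.1 CPM in the LacZ libraries (log2FC -2.41 ± 0.18, edgeR adjusted p = 2.39e-10), and the ligand Wnt5a had 13.9 and 15.6 CPM in the MGT libraries, against 38.9 and 35.9 CPM in the LacZ libraries. Wnt5a had a log2FC of -1.34 ± 0.13 (edgeR adjusted p = 2.8e-08). Their groups did not overlap. Of 13 FGF genes 2 rose and 1 fell, with 1 rise when any 1 of the 4 libraries was left out. The receptors went in opposite directions, Fgfr3 up (5.68 and 6.3 CPM with MGT, against 1.94 and 1.71 CPM with LacZ, log2FC 1.71 ± 0.25, edgeR adjusted p = 2.56e-05) and Fgfr2 down (28.3 and 25.3 CPM with MGT, against 52.8 and 49.1 CPM with LacZ, log2FC -0.93 ± 0.13, edgeR adjusted p = 1.08e-05).

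Epicardial and mesothelial markers, the genes of the heart's outer lining, had the largest share of falls of the 41 lists. Of 13 tested members 9 fell and 1 rose (median log2FC -1.44), and 9 fell whichever of the 4 libraries was left out. Lrrn4, a membrane protein of mesothelium (chr2:132868305-132880891, minus strand), had 63 and 65.1 CPM in the MGT libraries, against 268 and 239 CPM in the LacZ libraries (log2FC -1.98 ± 0.12, edgeR adjusted p = 6.13e-11). Upk3b, a uroplakin of mesothelium, had 46.7 and 49.3 CPM in the MGT libraries, against 146 and 130.5 CPM in the LacZ libraries. This gave Upk3b a log2FC of -1.53 ± 0.10 (edgeR adjusted p = 1.15e-11). Gpm6a, a membrane glycoprotein, had 16.5 and 22 CPM in the MGT libraries, against 80.8 and 66.5 CPM in the LacZ libraries (log2FC -1.94 ± 0.14, edgeR adjusted p = 1.92e-10). The lower LacZ library lay 3.67-fold above the higher MGT library for Lrrn4, 2.65-fold for Upk3b and 3.02-fold for Gpm6a. Muc16, a mesothelial mucin, had 0.618 and 0.424 CPM in the MGT libraries, against 8.21 and 8.11 CPM in the LacZ libraries (log2FC -3.94 ± 0.39, edgeR adjusted p = 7.31e-08), and Upk1b, another uroplakin, fell less, with 83 and 89.6 CPM in the MGT libraries, against 146 and 139 CPM in the LacZ libraries. The log2FC of Upk1b was -0.72 ± 0.10 (edgeR adjusted p = 8.28e-06). Msln, mesothelin, the surface protein that names this lining, was level at 118 and 135 CPM in the MGT libraries, against 127 and 122 CPM in the LacZ libraries (log2FC 0.022 ± 0.093, edgeR adjusted p = 0.957). In bulk RNA fewer cells of a type and less RNA per cell cannot be told apart.

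Markers of other cell types moved less. The sum of 6 endothelial markers was 268.5 and 229.9 CPM in MGT libraries, against 296.5 and 326.8 CPM in LacZ libraries, with 1 member fallen. The sum of 7 macrophage markers was 62.97 and 80.24 CPM with MGT, against 73.61 and 86.45 CPM with LacZ, with none called. Of the larger lists, 2 of 13 endothelial genes rose and 1 fell (1 rose without LacZ replicate 1, LacZ replicate 2 or MGT replicate 1, and the fall was lost without LacZ replicate 1, LacZ replicate 2 or MGT replicate 2). None of 15 macrophage genes was called by edgeR or by DESeq2, with 3 lower at an unadjusted p under 0.05. Flt1, a VEGF receptor, was the endothelial-list gene with the smallest p, at 119.7 and 126 CPM in the MGT libraries, against 54.2 and 60.5 CPM in the LacZ libraries (log2FC 1.10 ± 0.11, edgeR adjusted p = 5.26e-08), while Cdh5, the endothelial cadherin, did not pass the test (log2FC -0.28 ± 0.25, edgeR adjusted p = 0.709). The pericyte list had 1 gene risen and 1 fallen of 7, the fall being lost when any 1 library was left out. Cspg4, a proteoglycan of pericytes and fibroblasts, had 218 and 239 CPM in the MGT libraries, against 122 and 131 CPM in the LacZ libraries. Cspg4 had a log2FC of 0.85 ± 0.12 (edgeR adjusted p = 9.47e-05). Of 3 tested Schwann cell genes none was called by edgeR or by DESeq2, and none had an unadjusted p under 0.05. The part of these cells in the changes above was not tested.

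Interferon-stimulated genes leaned lower with MGT, though most were not called. Of 30 tested members 10 fell and none rose, where 3.24% of all genes fell. All 30 had a negative log2FC (median -0.51), where 48% of all tested genes had one above 0. The count of falls was 6, 2, 10 and 2 without LacZ replicate 1, LacZ replicate 2, MGT replicate 1 and MGT replicate 2, and 24 had an unadjusted p under 0.05. Ifi27l2a, a small interferon-induced mitochondrial protein, held in all of these fits, with 11.8 and 8.96 CPM in the MGT libraries, against 31.2 and 30.3 CPM in the LacZ libraries (log2FC -1.56 ± 0.16, edgeR adjusted p = 4.76e-08). Ifit3, which binds foreign RNA with its relatives, was the most abundant, at 349 and 272 CPM in the MGT libraries, against 565 and 614 CPM in the LacZ libraries, without overlap but short of the threshold (log2FC -0.92 ± 0.23, edgeR adjusted p = 0.0698). MGT replicate 2 was the lower of the MGT libraries in 26 of the 30.

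In the complement list 6 of 11 tested members fell and none rose (median log2FC -0.63), and 4 fell without LacZ replicate 1, LacZ replicate 2 or MGT replicate 2. Serping1, the inhibitor of the first complement protease, had 214 and 198 CPM in the MGT libraries, against 418 and 362 CPM in the LacZ libraries. This gave Serping1 a log2FC of -0.92 ± 0.094 (edgeR adjusted p = 7.31e-08). C1s1, a first-component protease, had 19.6 and 19.7 CPM in the MGT libraries, against 44.3 and 33.5 CPM in the LacZ libraries (log2FC -0.98 ± 0.12, edgeR adjusted p = 2.39e-06). Both genes were lower in both MGT libraries than in either LacZ library. Among 22 chemokine, cytokine and metalloproteinase genes 1 rose (4.55%) and 2 fell (9.09%), where 4.26% of all genes rose and 3.24% fell. Mmp3, stromelysin, had 12.4 and 9.93 CPM in the MGT libraries, against 32.6 and 29.8 CPM in the LacZ libraries (log2FC -1.48 ± 0.13, edgeR adjusted p = 9.27e-09), Mmp2, a gelatinase, had 393 and 391 CPM in the MGT libraries, against 562 and 554 CPM in the LacZ libraries (log2FC -0.51 ± 0.076, edgeR adjusted p = 3.19e-05), and Lif, a cytokine of the interleukin 6 family, had 169 and 166 CPM in the MGT libraries, against 97 and 108 CPM in the LacZ libraries. The log2FC of Lif was 0.71 ± 0.091 (edgeR adjusted p = 3.22e-06).

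Cell cycle genes were not called. Of 20 mitosis genes none passed by edgeR or by DESeq2, and 2 had a lower level at an unadjusted p under 0.05. All 20 had a negative log2FC, however (median -0.17), and 12 of them fell at 3 months and 17 at 18 months. All 20 were lower in MGT replicate 2 than in MGT replicate 1, and 2 fell when MGT replicate 1 was left out. Mki67, a marker of cycling cells, had 193 and 86.8 CPM in the MGT libraries, against 197 and 205 CPM in the LacZ libraries, so that MGT replicate 2 alone stood apart (log2FC -0.52 ± 0.38, edgeR adjusted p = 0.631). Of 17 replication genes none was called by edgeR or by DESeq2, 1 was lower at an unadjusted p under 0.05, and 14 had a negative log2FC. Pcna, the replication clamp, stood at 127 and 133 CPM in the MGT libraries, against 134 and 141 CPM in the LacZ libraries (log2FC -0.084 ± 0.091, edgeR adjusted p = 0.76). Cdkn1a, the p53-induced CDK inhibitor p21, was high in both groups, at 671 and 701 CPM in the MGT libraries, against 627 and 616 CPM in the LacZ libraries, and did not pass the test (log2FC 0.14 ± 0.076, edgeR adjusted p = 0.38). Of 10 CDK inhibitor and Rb family genes 2 fell, and of 16 p53 targets 2 rose, but the first count was 1, 1, 1 and 0 and the second 0, 0, 1 and 0 without LacZ replicate 1, LacZ replicate 2, MGT replicate 1 and MGT replicate 2.

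**Figure D4:**
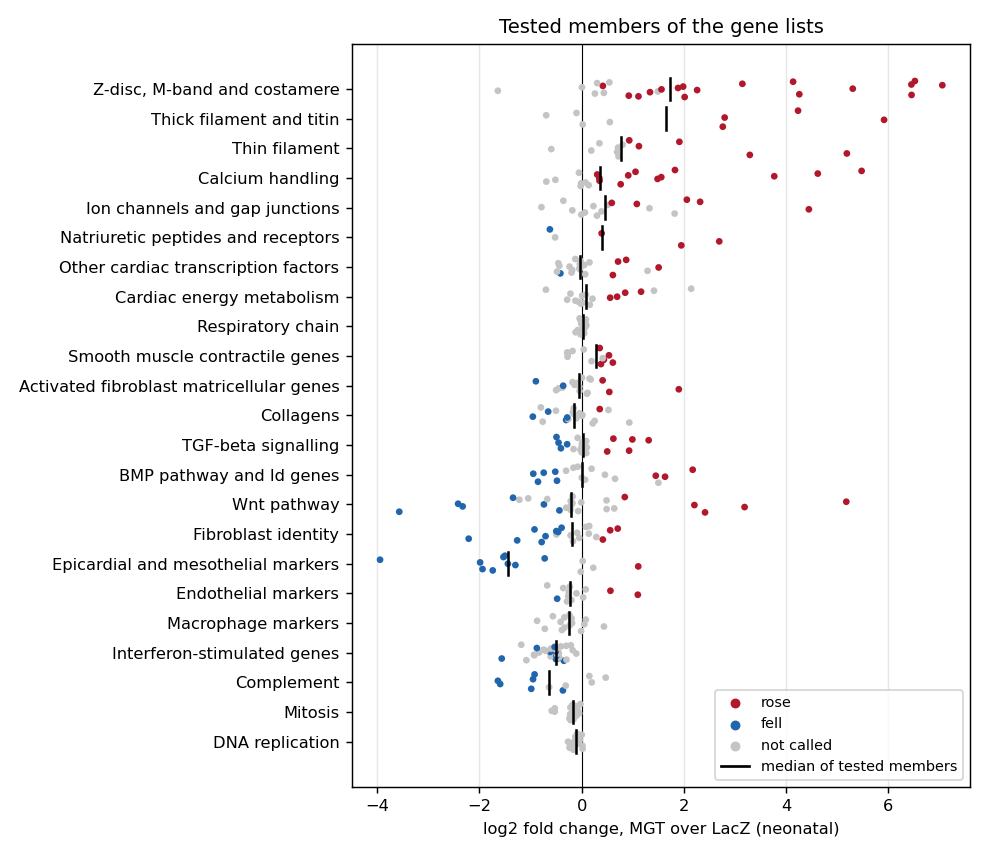
Log2 fold change of MGT over LacZ of every tested member of 23 gene lists, one row per list, with genes that rose in red, genes that fell in blue, uncalled genes in grey and a black bar at each list's median. Contractile and calcium lists spread to the right, the epicardial list lies to the left with its median at -1.44, and all 30 interferon-stimulated genes lie below 0.

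The largest falls among the more abundant genes were of mixed function. Hpgd, the enzyme that breaks down prostaglandins, had 3.26 and 2.42 CPM in the MGT libraries, against 25.2 and 24.5 CPM in the LacZ libraries. Hpgd had a log2FC of -3.12 ± 0.19 (edgeR adjusted p = 4.5e-12). Dpp4, a cell-surface peptidase found on some fibroblasts, had 3.49 and 4.36 CPM in the MGT libraries, against 31.9 and 31.3 CPM in the LacZ libraries (log2FC -3.01 ± 0.17, edgeR adjusted p = 1.71e-12). Ahr, the aryl hydrocarbon receptor, a ligand-activated transcription factor, had 12.3 and 11.6 CPM in the MGT libraries, against 73.9 and 61.1 CPM in the LacZ libraries. This gave Ahr a log2FC of -2.50 ± 0.14 (edgeR adjusted p = 1.71e-12). The lower LacZ library lay 7.51-fold above the higher MGT library for Hpgd, 7.17-fold for Dpp4 and 4.98-fold for Ahr. Igfbp4, which binds insulin-like growth factors, had 28.6 and 24 CPM in the MGT libraries, against 119 and 116 CPM in the LacZ libraries (log2FC -2.16 ± 0.17, edgeR adjusted p = 3.51e-06), and Rasgrf2, an exchange factor for Ras, had 3.65 and 4 CPM in the MGT libraries, against 19.7 and 16.6 CPM in the LacZ libraries (log2FC -2.24 ± 0.23, edgeR adjusted p = 8.53e-08). Prokr2, the receptor of prokineticins (-2.09), Crb2, an apical polarity protein (-2.09), and Pkhd1l1, a large membrane protein (-2.01), had like log2FC.

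The series asks how age alters reprogramming, so the neonatal change was set beside the changes at 3 and 18 months, which rest on other libraries. More genes were called there, 17.4% of those tested at 3 months (8.99% higher, 8.39% lower) and 16.6% at 18 months (8.52% higher, 8.05% lower). Of the genes that rose in neonatal cells, 537 also rose at 3 months (76.9% of the neonatal rises and 36.5% of those at 3 months) and 500 at 18 months (71.6% and 35.8%). Of the falls, 291 were also called at 3 months (54.8% of the neonatal and 21.2% of the 3-month falls) and 161 at 18 months (30.3% and 12.2%). Across all tested genes, which are not independent replicates, the log2FC of neonatal cells correlated with that of 3-month cells at Pearson's r = 0.499 and with that of 18-month cells at 0.45. The neonatal cultures also held both Xist and Y-linked transcripts and the adult ones almost no Xist, so age and the sex of the cells cannot be told apart. The 2 LacZ libraries of 3 months differed more from each other than any other pair.

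The size of the change itself differed in 605 genes against 3 months (3.7%), of which 231 (1.41%) had the higher and 374 (2.28%) the lower log2FC in neonatal cells, and in 461 genes against 18 months (2.82%), of which 129 (0.788%) had the higher and 332 (2.03%) the lower. These were tested as interaction terms. The first count ran to 1760 without 3-month LacZ replicate 1 and to 375 and 372 without neonatal LacZ replicate 1 and replicate 2, and to 363 and 382 without 3-month MGT replicate 1 and replicate 2. The second was 255 and 259 without neonatal LacZ replicate 1 and replicate 2, 290 and 293 without 18-month LacZ replicate 1 and replicate 2, and 241 without 18-month MGT replicate 2.

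Against 3 months, a lower log2FC in neonatal cells was called in 2 of 12 thin filament genes, 1 of 8 thick filament genes and 4 of 24 Z-disc genes, and a higher one in 1 Z-disc gene. Tnnt2 was one of the lower ones, and its log2FC was 1.91 in neonatal cells, 6.66 in 3-month cells and 6.24 in 18-month cells (difference of log2FC, neonatal minus 3 months, -4.74 ± 0.32, edgeR adjusted p = 2.77e-05). It had 295 ± 26.2 CPM in 3-month MGT cells, against 2.91 ± 0.138 CPM in 3-month LacZ cells (SD, n = 2 each), and 251 ± 4.81 CPM in 18-month MGT cells, against 3.3 ± 1.15 CPM in 18-month LacZ cells. Neonatal MGT cells thus had the highest level of the 3 ages, and neonatal LacZ cells 98.2-fold the level of 3-month and 86.7-fold that of 18-month LacZ cells. Actc1 was alike, with log2FC 3.29 in neonatal cells, 8.17 in 3-month cells and 8.99 in 18-month cells (difference of log2FC, neonatal minus 3 months, -4.88 ± 0.89, edgeR adjusted p = 0.00645). Des had 265 ± 16.2 CPM in 3-month MGT cells, against 3.91 ± 0.0974 CPM in 3-month LacZ cells, and its neonatal rise was the smaller (difference of log2FC, neonatal minus 3 months, -1.82 ± 0.18, edgeR adjusted p = 1.56e-07). Synpo2l, low with LacZ at every age, did not differ past the threshold (difference of log2FC, neonatal minus 3 months, -0.65 ± 0.49, edgeR adjusted p = 0.644), nor did Myl4 (difference of log2FC, neonatal minus 3 months, -0.60 ± 0.34, edgeR adjusted p = 0.505).

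The epicardial list differed between the ages. Of its 13 members 7 had a lower and 1 a higher log2FC in neonatal than in 3-month cells. Against 18-month cells, 7 had a lower and none a higher one. Its median log2FC was -1.44 in neonatal, 2.02 in 3-month and 0.48 in 18-month cells. The adult medians include members at trace level, such as Gpm6a, with 0.062 CPM in 3-month MGT and 0.178 CPM in 3-month LacZ cells. Msln was level in neonatal cells but had 36.5 ± 0.109 CPM in 3-month MGT cells, against 0.881 ± 0.202 CPM in 3-month LacZ cells, and 26 ± 1.3 CPM in 18-month MGT cells, against 1.25 ± 0.277 CPM in 18-month LacZ cells (difference of log2FC, neonatal minus 3 months, -5.35 ± 0.21, edgeR adjusted p = 1.48e-15, and neonatal minus 18 months, -4.34 ± 0.20, edgeR adjusted p = 8.91e-14). Upk1b fell in neonatal cells, and had 33.6 ± 3.91 CPM in 3-month MGT cells, against 0.849 ± 0.156 CPM in 3-month LacZ cells (difference of log2FC, neonatal minus 3 months, -6.03 ± 0.22, edgeR adjusted p = 4.88e-16). In both genes the adult MGT cells stayed below the neonatal LacZ cells. Lrrn4 had 2.48 ± 0.783 CPM in 3-month MGT cells, against 1.16 ± 0.371 CPM in 3-month LacZ cells, so that its neonatal fall starts from a level that adult LacZ cells did not have. The part of epicardial cells in the neonatal cultures in these differences was not tested.

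Among genes with a higher log2FC in neonatal cells, Abi3bp, an extracellular matrix protein (chr16:56477878-56690135, plus strand), had 21.4 and 25.3 CPM in the MGT libraries, against 0.456 and 0.48 CPM in the LacZ libraries (log2FC 5.62 ± 0.27, edgeR adjusted p = 3.31e-13), and its log2FC at 3 months was 2.47 (difference of log2FC, neonatal minus 3 months, 3.15 ± 0.38, edgeR adjusted p = 5.7e-06, and neonatal minus 18 months, 3.87 ± 0.37, edgeR adjusted p = 2.79e-07). Its adult LacZ level was higher, with 41.2 ± 11.9 CPM in 3-month MGT cells, against 7.44 ± 0.88 CPM in 3-month LacZ cells, and 20.8 ± 1.26 CPM in 18-month MGT cells, against 6.22 ± 0.439 CPM in 18-month LacZ cells. The lowest LacZ level was the neonatal one. Aqp1, a water channel, had 81 and 65.9 CPM in the MGT libraries, against 30.7 and 29.7 CPM in the LacZ libraries (log2FC 1.28 ± 0.12, edgeR adjusted p = 7.41e-09), and it had 36.3 ± 0.516 CPM in 18-month MGT cells, against 41.7 ± 5.33 CPM in 18-month LacZ cells (neonatal minus 18 months, 1.49 ± 0.16, edgeR adjusted p = 1.27e-06). Among falls, Hpgd had 4.11 ± 0.0604 CPM in 3-month MGT cells, against 4.54 ± 0.81 CPM in 3-month LacZ cells (difference of log2FC, neonatal minus 3 months, -2.97 ± 0.29, edgeR adjusted p = 1.23e-07), and Ahr had 21.5 ± 1.48 CPM in 3-month MGT cells, against 29.1 ± 6.48 CPM in 3-month LacZ cells (difference of log2FC, neonatal minus 3 months, -2.07 ± 0.19, edgeR adjusted p = 1.09e-07). In both genes neonatal cells had the higher LacZ level and the lower MGT level.

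**Figure D5:**
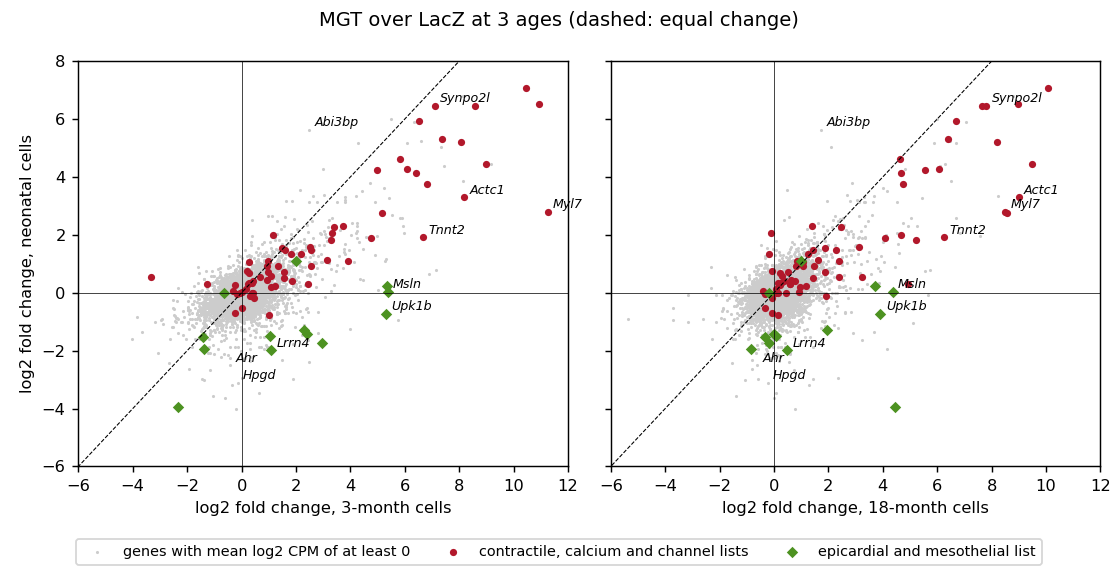
Log2 fold change of MGT over LacZ in neonatal cells (vertical) against that in 3-month cells (left) and 18-month cells (right) for genes with a mean log2 CPM of at least 0 in the neonatal libraries, with contractile, calcium and channel genes in red and epicardial genes as green diamonds. Tnnt2, Actc1 and Myl7 lie far to the right of the dashed line of equal change, and Msln and Upk1b rise with MGT in adult cells while staying level or falling in neonatal cells.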

How the data were processed

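Bulk RNA-seq counts of 12 libraries were used, 4 of them neonatal. The authors deposited whole-number read counts per gene, and beside them FPKM and the exonic length of each gene. Per the submitters' processing notes, Trimmomatic 0.36, Subread 1.5.1 with featureCounts, SAMtools and build mm10 were used, and the aligner is not given in the sources used here. Per the labels, total RNA went through rRNA depletion and a stranded kit, while the molecule is given as polyA RNA. Columns named D3 were taken as MGT and columns named 15 months as the labels' 18 months. The titles of the LacZ libraries also carry the word MGT, and the treatment label was followed.

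Of 55401 genes, 16368 passed filterByExpr by group. The filter lets in genes with reads in MGT libraries alone, so shares of lists with low genes lean towards rises. All 12 libraries were fitted together in R 4.3.3 with edgeR 4.0.16 (TMM factors, robust quasi-likelihood fit, 1 coefficient per group), and differences of the MGT effect between ages were contrasts of that fit. Standard errors are the log2FC over the square root of F. The deposited FPKM were used only for levels between genes. Alternatives were DESeq2 1.42.0, RLE factors, library size only, no filter, a filter of 10 counts and 1 CPM, a 2-fold minimum, the 4 neonatal libraries alone, a replicate block and leaving out each library. Leaving out the 3-month LacZ libraries was added after seeing the data. A left-out library leaves 1 in its group, which is then assumed to vary like the others.

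The members and the 41 gene lists were chosen with earlier results of these data known. Genes named are Mef2c, Gata4, Tbx5 and Nr4a3, among called genes with a mean log2 CPM of at least 3 the 12 that rose most and the 12 that fell most (predicted genes left out), up to 4 called members of each list with the smallest p and the 2 with the highest level, and the 5 largest differences in each direction between ages among called genes with a mean log2 CPM of at least 3 over the 12 libraries. Myh6, Mef2a, Postn and the genes with too few counts were named after their values were seen. On simulated counts in 15663 genes, the neonatal comparison recovered 34 of 50 genes changed 1.5-fold, 46 of 50 changed 2-fold and 49 of 50 changed 4-fold, with 15 false calls. The changed genes were drawn above a minimum level, and the simulated libraries held no difference between ages. Each gene had the same spread in all groups, unlike the real 3-month LacZ pair. Recovery in the real libraries, and of low genes, was therefore not measured. Intervals and floors cover counting error only.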

Additional observations from a re-analysis of the deposited data

Results flagged for a closer look

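The response to MGT differed between neonatal and adult cells by an interaction term in 605 genes against 3 months and in 461 genes against 18 months. The values are differences of log2FC, neonatal minus adult.

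Against 3 months, and among genes with a mean log2 CPM of at least 3 over the 12 libraries, the largest differences with a lower neonatal log2FC were those of Upk1b (-6.03), Msln (-5.35), Tnnt2 (-4.74), Ptprq (-4.18) and Flt1 (-4.16). Ptprq, a receptor phosphatase, fell in neonatal cells with 17 and 18.3 CPM in the MGT libraries, against 47.4 and 44.6 CPM in the LacZ libraries (log2FC -1.38 ± 0.16, edgeR adjusted p = 1.14e-06) but had 10.9 ± 3.15 CPM in 3-month MGT cells, against 1.59 ± 0.729 CPM in 3-month LacZ cells. Flt1 rose at both ages, and had 59 ± 6.27 CPM in 3-month MGT cells, against 1.54 ± 0.0866 CPM in 3-month LacZ cells. In the same genes, the largest with a higher neonatal log2FC were those of Abi3bp (3.15), Ifit3 (1.98), Arhgap20 (1.75), Ackr3 (1.54) and Mx2 (1.52). Ifit3 and Mx2 are interferon-stimulated genes, of which 29 of 30 fell at 3 months. Ifit3 lost its call without neonatal LacZ replicate 1 (edgeR adjusted p = 0.111) or replicate 2 (0.0878), without 3-month LacZ replicate 2 (0.0699), without neonatal MGT replicate 1 (0.0676) and without 3-month MGT replicate 1 (0.0937) or replicate 2 (0.106), and Ackr3, a chemokine scavenger receptor, without 3-month LacZ replicate 1 (0.0583) or replicate 2 (0.116).

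Against 18 months, under the same limit on level, the lower ones were Upk1b (-4.63), Msln (-4.34), Tnnt2 (-4.32), Ptprq (-4.30) and Saa3 (-3.51). Saa3, an acute-phase protein, had 129 and 152 CPM in the MGT libraries, against 127 and 96.3 CPM in the LacZ libraries, and 114 ± 9.77 CPM in 18-month MGT cells, against 7.89 ± 0.268 CPM in 18-month LacZ cells. The higher ones were Abi3bp (3.87), Rgs2 (1.59), Arhgap20 (1.56), Aqp1 (1.49) and Ripor2 (1.28). Rgs2, a brake on G-protein signals, had 5.12 and 5.33 CPM in the MGT libraries, against 2.17 and 2.19 CPM in the LacZ libraries (log2FC 1.26 ± 0.25, edgeR adjusted p = 0.00125). Ripor2 lost its call without neonatal LacZ replicate 2 (edgeR adjusted p = 0.0586), 18-month LacZ replicate 2 (0.0625), neonatal MGT replicate 1 (0.0505) or 18-month MGT replicate 2 (0.139).

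Below that level some genes differed by more, among them Myl7 (-8.45 against 3 months and -5.71 against 18 months), Actc1 (-4.88 and -5.70) and, with a higher neonatal log2FC against 3 months, Myh8 (edgeR adjusted p = 0.0128). Their fitted sizes depend on the prior count, since the mean of Myl7 was 0 CPM in 3-month and 0.029 CPM in 18-month LacZ cells, that of Actc1 0.064 and 0.0311 CPM, and Myh8 had no counts in neonatal LacZ cells.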

How the results depend on the processing

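The neonatal count of 1229 called genes was 1219 with RLE factors, 1229 with library size only, 1064 with DESeq2, 1324 without a filter and 1232 with a stricter one. It was 459 with a 2-fold minimum, 1977 with only the 4 neonatal libraries and 688 to 1037 when 1 library was left out. The count of genes differing from 3 months, 605, was 302 with the 2-fold minimum, and 363 to 1760 when 1 library was left out. The count differing from 18 months, 461, was 211 with the 2-fold minimum, 1013 without the 3-month LacZ libraries and 241 to 372 when 1 library was left out. With those libraries left out the neonatal count was 1704. Of 169 results on single genes, 111 kept their direction and side of the threshold under all alternatives except the 2-fold minimum, which was left out of this count. With 1 library left out, the uncalled log2FC of Msln ran between -0.081 and 0.13 and that of Myh6 between -0.081 and 0.13 (-0.034 without LacZ replicate 2). The labels do not say that replicate numbers pair libraries, and the differences between replicates 1 and 2 in MGT and LacZ correlated at 0.007 in neonatal, 0.201 in 3-month and -0.003 in 18-month cells over 9923 genes. A replicate block gave 1340 neonatal calls, and 758 and 592 genes differing from 3 and 18 months. Limits are the 2 libraries per group, day 3 alone, and counts per gene that mix delivered and own copies of the factors.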

Other observations

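Imprinted and fetal growth genes were mostly not called, with 1 of 18 tested members risen and 1 fallen (2 without LacZ replicate 2, and 2 risen and 4 fallen when only the 4 neonatal libraries were fitted). Mest, a mesodermal gene expressed from the paternal copy, had 49.7 and 46.3 CPM in the MGT libraries, against 21.3 and 22.6 CPM in the LacZ libraries (log2FC 1.13 ± 0.14, edgeR adjusted p = 2.06e-06), and Plagl1, a zinc finger factor of the imprinted network, had 61.9 and 48.9 CPM in the MGT libraries, against 94.6 and 95.9 CPM in the LacZ libraries (log2FC -0.78 ± 0.11, edgeR adjusted p = 1.29e-05). Igf2r, the receptor that clears insulin-like growth factor 2, did not pass the test (log2FC -0.11 ± 0.12, edgeR adjusted p = 0.751). Among splicing regulators 3 of 13 rose, but 1 when any 1 of the 4 libraries was left out and 1 with DESeq2. Rbm20, which directs titin splicing in the heart, was the one that held, with 12.3 and 16.8 CPM in the MGT libraries, against 3.87 and 3.9 CPM in the LacZ libraries (log2FC 1.90 ± 0.23, edgeR adjusted p = 9.66e-07).

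Glycolysis genes fell in 3 and rose in 1 of 17 tested members, with 0, 0, 1 and 0 falls without LacZ replicate 1, LacZ replicate 2, MGT replicate 1 and MGT replicate 2, and 5 falls and 2 rises with the neonatal libraries alone. Pfkp, the platelet-type phosphofructokinase, rose, with 109 and 119 CPM in the MGT libraries, against 75.2 and 82.1 CPM in the LacZ libraries (log2FC 0.54 ± 0.10, edgeR adjusted p = 0.00038). Of 18 chromatin regulators studied in cardiac reprogramming 1 rose, Smarcd3, a cardiac subunit of the BAF remodelling complex, with 33.9 and 36.8 CPM in the MGT libraries, against 25.4 and 25 CPM in the LacZ libraries (log2FC 0.49 ± 0.11, edgeR adjusted p = 0.00334), and none without LacZ replicate 2 or MGT replicate 2. Of 12 Notch genes 1 fell, and none did without any 1 of the 4 libraries. Of 10 genes of the unfolded protein response none was called by edgeR or by DESeq2, while 4 were lower at an unadjusted p under 0.05 and 3 fell with the neonatal libraries alone, and Hspa5, its main chaperone, stood at 775 and 749.8 CPM in the MGT libraries, against 842 and 842 CPM in the LacZ libraries (log2FC -0.14 ± 0.078, edgeR adjusted p = 0.387).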
